A study of Mus musculus with 3 samples.

Results

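The use of immunoglobulin V genes was measured in single immune cells (CD45+, sorted after perfusion) of the sciatic nerve of NOD.AireGW/+ mice with neuropathy. The members were all genes of the deposited gene list whose symbol starts with Ighv, Igkv or Iglv, which gave 348 of 32285 genes, with 185 heavy chain (Ighv), 160 kappa (Igkv) and 3 lambda (Iglv) members. Of the symbols, 2 stand for 2 rows each. The mice are heterozygous for the GW allele of Aire, which acts in thymic tolerance, in the NOD strain, which is prone to autoimmunity, and the labels give no age. Each of the first 2 libraries holds 1 mouse and the third 2 pooled mice. All 3 belong to 1 group with no control mice, so comparisons were made between cell classes within libraries, with the library as the replicate.

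A V gene encodes most of the variable domain with which an antibody binds its antigen. During its development a B cell joins a single heavy V segment to D and J segments and a single light V segment, kappa or lambda, to a J segment, and its descendants carry the same joined genes. B cells display the product as their receptor together with Cd79a and Cd79b, and plasma cells, their antibody-secreting form, make immunoglobulin transcripts in very large amounts. T cells and myeloid cells do not assemble V genes.

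The germline sequences of the V genes called most often in plasma cells are shown first, because the use of these 7 genes carries the main pattern. They come from the GENCODE M21 transcripts (GRCm38, the assembly also named mm10), and each run is the 3′ part of the V exon's coding sequence, at most 300 bases long, read 5′ to 3′ on the coding strand. Capitals mark the last in-frame match to TANTGN, the codons of the conserved tyrosine and cysteine before the CDR3 loop. The motif was searched on the coding strand only, and 76.9% of 216 V exons held it in frame within their last 60 bases. Ighv8-12 and Igkv3-4 led the heavy and light calls of library 1. In library 2, Ighv5-17, Ighv3-6 and Ighv5-6 led the heavy calls and Igkv12-44, Igkv3-4 and Igkv5-39 the light calls.
Ighv8-12: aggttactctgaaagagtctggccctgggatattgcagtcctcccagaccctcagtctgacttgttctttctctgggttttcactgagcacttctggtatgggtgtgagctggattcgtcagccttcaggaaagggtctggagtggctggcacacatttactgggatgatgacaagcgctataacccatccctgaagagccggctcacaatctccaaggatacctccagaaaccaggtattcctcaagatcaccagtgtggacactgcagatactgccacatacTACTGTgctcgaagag
Igkv3-4: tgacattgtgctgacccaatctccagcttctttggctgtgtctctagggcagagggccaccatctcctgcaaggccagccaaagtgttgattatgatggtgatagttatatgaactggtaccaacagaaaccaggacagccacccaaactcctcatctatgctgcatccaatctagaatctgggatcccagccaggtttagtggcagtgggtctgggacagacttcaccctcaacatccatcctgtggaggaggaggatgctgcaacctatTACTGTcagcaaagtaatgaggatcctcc
Ighv3-6: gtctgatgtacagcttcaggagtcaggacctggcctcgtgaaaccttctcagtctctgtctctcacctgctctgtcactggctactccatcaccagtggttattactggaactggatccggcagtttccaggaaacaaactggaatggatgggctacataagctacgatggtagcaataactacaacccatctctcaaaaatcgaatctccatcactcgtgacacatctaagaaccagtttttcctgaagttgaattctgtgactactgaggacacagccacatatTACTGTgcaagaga
Igkv12-44: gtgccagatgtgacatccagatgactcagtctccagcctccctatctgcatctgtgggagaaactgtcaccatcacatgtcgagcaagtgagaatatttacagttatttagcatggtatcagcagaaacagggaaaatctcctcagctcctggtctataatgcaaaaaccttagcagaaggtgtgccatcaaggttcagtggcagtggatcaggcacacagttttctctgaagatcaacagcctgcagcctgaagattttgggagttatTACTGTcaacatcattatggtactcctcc
Ighv5-17: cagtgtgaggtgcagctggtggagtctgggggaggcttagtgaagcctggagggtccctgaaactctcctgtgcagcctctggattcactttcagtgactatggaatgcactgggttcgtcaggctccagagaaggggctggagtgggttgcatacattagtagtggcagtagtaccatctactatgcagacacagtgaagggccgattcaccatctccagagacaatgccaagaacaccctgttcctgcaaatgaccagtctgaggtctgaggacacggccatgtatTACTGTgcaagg
Ighv5-6: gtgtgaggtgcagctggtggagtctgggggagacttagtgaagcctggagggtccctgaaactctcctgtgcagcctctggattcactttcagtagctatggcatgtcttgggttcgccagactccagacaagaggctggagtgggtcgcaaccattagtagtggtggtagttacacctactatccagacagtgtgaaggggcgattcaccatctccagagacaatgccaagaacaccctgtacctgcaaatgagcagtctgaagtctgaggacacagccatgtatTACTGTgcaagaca
Igkv5-39: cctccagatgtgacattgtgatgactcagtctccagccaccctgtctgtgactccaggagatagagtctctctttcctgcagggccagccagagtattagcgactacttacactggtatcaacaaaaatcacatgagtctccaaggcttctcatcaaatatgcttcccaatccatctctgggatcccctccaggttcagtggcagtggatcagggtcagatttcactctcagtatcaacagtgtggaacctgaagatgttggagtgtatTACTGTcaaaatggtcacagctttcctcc

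By GENCODE M21 the heavy members lie on chromosome 12 between 113572927 and 116010093, all 183 matched ones on the minus strand. The kappa members span 67555497 to 70704177 on chromosome 6, with 75 on the plus and 85 on the minus strand, and the lambda members lie on chromosome 16 between 19085017 and 19260859. Ighv8-12 is at chr12:115647945-115648387 (minus strand) and Igkv3-4 at chr6:70671788-70672377 (plus strand). Ighv3-6 is at chr12:114288152-114288582, Ighv5-17 at chr12:113859149-113859670 and Ighv5-6 at chr12:113625506-113625956, and Igkv12-44 at chr6:69814631-69815154 and Igkv5-39 at chr6:69900424-69900977, all on the minus strand. The printed V exon follows a leader exon in each of these genes.

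Of the 348 members, 236 had at least 1 UMI (a molecular tag that counts 1 captured transcript) in any library, among them 110 kappa genes and all 3 lambda genes, and 112 had none. Members annotated as IG_V_gene, the functional type, held 99.8% of the V UMIs, and 199 of 216 were detected. Members annotated as pseudogenes were detected in 37 of 130 cases and held 0.158% of the V UMIs, most of them from Igkv4-60 with 3232 UMIs. B cells of libraries 1 to 3 had UMIs of 181, 160 and 84 members, and 69 members were detected in B cells of every library.

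Cells were assigned to classes by fixed markers with no immunoglobulin gene among them, which gave 360, 263 and 88 B gate cells, 64, 119 and 2 plasma gate cells, 2640, 4043 and 1195 T gate cells and 144, 2361 and 60 myeloid gate cells in libraries 1 to 3. The libraries held 3926, 8311 and 1533 cells with 22983991, 55120460 and 3399733 UMIs, so library 3 was the shallowest, and 36, 7 and 14 barcodes were shared by libraries 1 and 2, 1 and 3, and 2 and 3. Ptprc, which encodes CD45, had a UMI in 91.3%, 69.3% and 49.6% of the cells. In the B gate, Cd79a, a gate marker, had a UMI in 98.6%, 99.6% and 97.7% of its cells and Sdc1, a plasma cell surface marker, in 0.278%, 0.380% and 0%. In the plasma gate Jchain, which joins antibody units, was found in 96.9% and 97.5% and Sdc1 in 67.2% and 83.2% of the cells of libraries 1 and 2. Defining T cell markers were present in some B gate cells, with Cd3e in 20.6% of them in library 1 and 4.56% and 3.41% in libraries 2 and 3. In plasma gate cells of libraries 1 and 2 Cd3e was found in 26.6% and 11.8%, Cd3g in 23.4% and 14.3%, and Cst3, a myeloid gate marker, in 90.6% and 98.3%, while Csf1r was found in 0% and 0.840%. Their part in the results was not tested. Only 2 of 64 and 2 of 119 plasma gate cells, and 43 of 360, 50 of 263 and 36 of 88 B gate cells, had no UMI of any T or myeloid marker. Since the 2 plasma gate cells of library 3 are too few for a share, their values are given but enter no mean.

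V transcripts were a small part of the transcriptome of B gate cells and close to an even share of that of plasma gate cells. In B gate cells 89.6, 76.7 and 56.2 of every 10000 UMIs came from V genes in libraries 1, 2 and 3, with a mean of 74.2 ± 16.9 (SD, n = 3 libraries). In the plasma gate the values were 5024 and 4398 per 10000 UMIs in libraries 1 and 2, with a mean of 4711 ± 443 (SD, n = 2), and 3876 in the 2 cells of library 3. T gate cells held 4.09, 1.38 and 0.262 and myeloid gate cells 1.55, 0.769 and 0.125 per 10000 UMIs. Every library had the same order, plasma over B over T over myeloid, and the ranges of the plasma, B and T classes did not overlap between libraries, while those of the T and myeloid classes did. No test was run on these 4 levels, because 3 paired libraries cannot give a two-sided exact permutation p under 0.25. The T and myeloid means, 1.91 ± 1.97 and 0.815 ± 0.713, rested on library 1 and were 0.820 and 0.447 without it. Myeloid gate cells were deeper, with median UMIs of 10399.5, 7425 and 2984.5 against 3712, 2825 and 1759 in T gate cells. The part of depth in the order of T over myeloid was not tested.

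Kappa genes supplied most V UMIs in every class, and lambda genes few. In B gate cells kappa V UMIs were 60.9, 58.8 and 45.3 per 10000 UMIs in libraries 1 to 3, heavy V UMIs 25.6, 15.4 and 9.22, and lambda V UMIs 3.21, 2.49 and 1.72. In plasma gate cells of libraries 1 and 2, heavy V UMIs reached 1690 and 1681 per 10000 UMIs, nearly the same level in both, against 3224 and 2665 for kappa and 110 and 52.7 for lambda. Lambda genes made 5.01%, 4.06% and 3.66% of the light V UMIs of B gate cells, and 3.31% and 1.94% of those of plasma gate cells. The levels of heavy and light members are counts of UMIs per 10000 UMIs and are not corrected for transcript length.

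**Figure D1:**
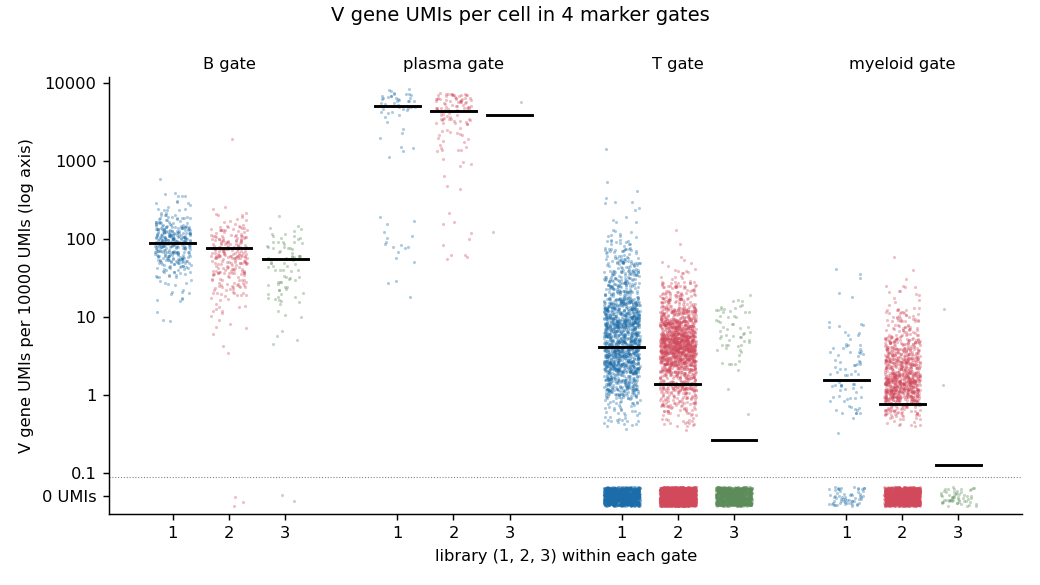
V gene UMIs per 10000 UMIs of each cell (log axis, with cells at 0 UMIs placed below the dotted line) for 4 gates and 3 libraries, where a point is a cell and a black line the level of all cells of the gate together. Most plasma gate cells lie far above the B gate, and a smaller number near it, and most T and myeloid gate cells lie at 0 or below the B gate lines of 89.6, 76.7 and 56.2.

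Within the plasma gate the level covered a wide range, and cells were divided at 10% of UMIs on V genes, a value set after seeing the data. In library 1, 18 of 64 cells lay under it, from 0.183% to 1.90%, and 46 cells lay above it, from 11.3% to 83.0%, with none between. In library 2 the lower part held 16 of 119 cells, from 0.556% to 9.78%, and the upper part 103 cells, from 10.7% to 74.8%, so no gap separated them there. The lower part had Ms4a1, which encodes the B cell protein CD20, in 94.4% and 62.5% of its cells and Sdc1 in 11.1% in library 1 and 25% in library 2. The upper part had Ms4a1 in 37.0% and 33.0% and Sdc1 in 89.1% and 92.2%. These shares are from cells of unlike depth, with median UMIs of 5042.5 and 10324 in the lower and 29985.5 and 22722 in the upper part. The lower part of library 1 had 12 heavy V genes in its 13 called cells, and the upper part had 14 in its 46.

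A V gene was called for a cell when it had at least 2 UMIs and at least 80% of the cell's V UMIs of that chain, with kappa and lambda genes counted together as light chain. A heavy gene was called in 285 of 360, 145 of 263 and 31 of 88 B gate cells, that is 79.2%, 55.1% and 35.2%, with exact 95% binomial intervals of 74.6% to 83.2%, 48.9% to 61.2% and 25.3% to 46.1% that cover counting error only. The median B gate cell had 9, 3 and 1 heavy V UMIs in libraries 1 to 3, and the part of depth in this share was not tested. A light gene was called in 226, 164 and 62 B gate cells (62.8%, 62.4% and 70.5%), where the median cell had 24, 11 and 5 light V UMIs. In the plasma gate a heavy gene was called in 59 of 64 and 116 of 119 cells and a light gene in 41 and 107, in libraries 1 and 2.

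B gate cells spread their heavy chain calls over many genes. In library 1 the 285 called cells used 66 heavy V genes, led by Ighv1-26, Ighv1-64 and Ighv3-6 with 15 cells each, or 5.26%, followed by Ighv2-2 with 14 and Ighv9-3 with 11 cells. In library 2 the 145 called cells used 60 genes, led by Ighv1-81, Ighv2-2 and Ighv3-6 with 8 cells each, or 5.52%, then Ighv6-3 with 7 and Ighv5-17 with 6. In library 3 the 31 called cells used 21 genes, with Ighv1-64 in 4 cells and Ighv5-17 in 3. The intervals of these leading shares overlapped, from 2.98% to 8.53% for Ighv1-26 in library 1 and from 3.63% to 29.8% for Ighv1-64 in library 3. Ighv3-6 was a joint leader in libraries 1 and 2, with 15 and 8 cells, and in library 3 it had 2 cells, as had 4 other genes.

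The chance that a pair of called cells drawn from the same library shares its V gene, the match probability, has an expected value that does not depend on the number of cells and was used to measure unevenness. For heavy calls of B gate cells it was 2.23%, 1.98% and 3.01% in libraries 1 to 3, which equals the evenness of 44.8, 50.4 and 33.2 equally used genes. By family, the Ighv1 genes, the largest family with 93 members, held 47.7%, 37.9% and 45.2% of the heavy calls of B gate cells. The Ighv5 family, with 22 members, held 9.82%, 13.1% and 16.1%, the Ighv2 family 13.3%, 15.2% and 6.45%, and the Ighv3 family 5.96%, 8.28% and 12.9%.

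Light chain calls of B gate cells were also spread, with a few genes that led in all libraries. Igkv10-96 was called in 18 of 226, 17 of 164 and 4 of 62 cells, that is 7.96%, 10.4% and 6.45%. Igkv12-46 was called in 14, 16 and 5 cells, or 6.19%, 9.76% and 8.06%. These were the leading pair in libraries 1 and 2, and both were among the 5 leading light genes of library 3. Igkv1-117, Igkv1-135 and Igkv17-127 followed in library 1 with 13, 11 and 10 cells. Igkv12-44, Igkv6-20 and Igkv6-32 followed in library 2 with 8, 8 and 7 cells, and Igkv6-15 reached 5 cells in library 3, level with Igkv12-46. The match probability of light calls was 2.997%, 3.49% and 2.86%, over 50, 46 and 32 genes. The Igkv1 family held 21.2%, 20.1% and 17.7% of the light calls and the Igkv12 family 11.1%, 16.5% and 14.5%.

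Many of the V genes called in B gate cells were called in more than 1 library, though not all leading ones. Ighv1-64, among the first in libraries 1 and 3, had no call in the B gate of library 2. Of the heavy genes called in B gate cells, 47 were called in both libraries 1 and 2, which is 71.2% of the 66 in library 1 and 78.3% of the 60 in library 2. Of the light genes, 39 were shared, which is 78.0% of 50 and 84.8% of 46. The cosine similarity of the B gate call counts, which is 1 for equal proportions, was 0.78 between libraries 1 and 2 for heavy and 0.87 for light genes. It was 0.56 and 0.48 for heavy and 0.77 and 0.79 for light genes between library 3 and libraries 1 and 2. The points of these similarities are genes of 1 list, and their number of called cells differs by library.

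Each lambda V gene was called in few cells. Iglv1 was called in 6, 2 and 1 B gate cells of libraries 1 to 3, Iglv2 in 4, 2 and 0 and Iglv3 in 2, 2 and 0. In UMIs, the B gate held 214, 31 and 8 of Iglv1, 161, 100 and 18 of Iglv2 and 130, 74 and 2 of Iglv3. In the plasma gate of libraries 1 and 2, Iglv1 had 6254 and 14039 UMIs, Iglv2 46 and 72 and Iglv3 9541 and 268. Iglv2 was therefore the only lambda gene with a lower level in plasma than in B gate cells, with 0.320 against 1.02 per 10000 UMIs in library 1 and 0.264 against 1.21 in library 2.

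In the plasma gate a few V genes held most of the calls, and those genes differed between the libraries. In library 1, Ighv8-12 was called in 31 of 59 cells, or 52.5% with an interval of 39.1% to 65.7%, followed by Ighv2-2 in 4 and Ighv5-17 in 3 cells. In library 2, Ighv5-17 was called in 38, Ighv3-6 in 31 and Ighv5-6 in 27 of 116 cells, and together these 3 genes held 82.8% of the calls. The next 4 genes, Ighv1-37 and Ighv1-80 among them, had 2 cells each. Ighv8-12, which led in library 1, had 0 UMIs in the plasma gate of library 2 and 7 in its B gate. The match probability of heavy calls was 27.8% and 22.8% in the plasma gates of libraries 1 and 2, against 2.23% and 1.98% in the B gates of the same libraries, and no test was run since only 2 libraries had enough plasma cells. The 2 plasma gate cells of library 3 carried Ighv1-55 and Ighv1-81.

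The light chain was as uneven. Igkv3-4 was called in 21 of 41 plasma gate cells of library 1, or 51.2% with an interval of 35.1% to 67.1%, and Igkv12-44 followed with 3 cells. Igkv1-135, Igkv10-96, Igkv8-21 and Igkv8-24 had 2 cells each. In library 2, Igkv12-44 was called in 39, Igkv3-4 in 30 and Igkv5-39 in 21 of 107 cells, which made 84.1% together, and Igkv8-21 in 6 cells. The match probability was 26.5% and 24.8%, against 2.997% and 3.49% in the B gates. Igkv3-4 was thus among the leaders of both plasma gates, whereas Igkv5-39 had 0 UMIs in the plasma gate of library 1. In B gate cells Igkv5-39 had 25, 2 and 0 UMIs.

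**Figure D2:**
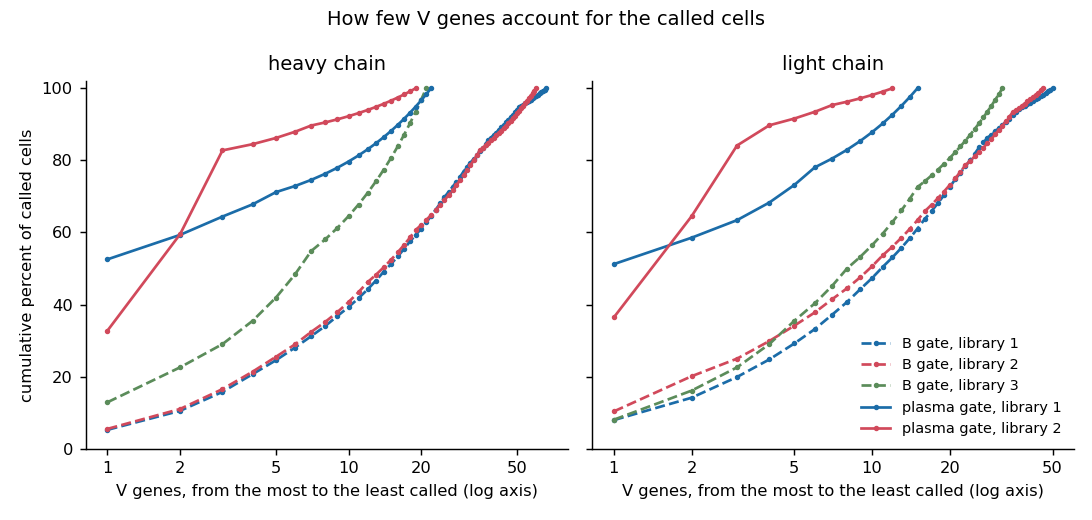
Cumulative percent of called cells against the number of V genes, ordered from the most to the least called (log axis), for heavy and light chain. The plasma gates of libraries 1 and 2 (solid lines) start at 52.5% and 32.8% for heavy and 51.2% and 36.4% for light, and the B gates (dashed lines) start between 5.26% and 12.9%.

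The heavy and light calls of the plasma gate went together in single cells. In library 1, 40 cells had both calls, and 19 of them, or 47.5%, paired Ighv8-12 with Igkv3-4, while the other 21 pairs were each found in 1 cell. The 19 cells had from 1141 to 12950 Ighv8-12 UMIs, with a median of 6577, and from 3626 to 28269 Igkv3-4 UMIs, with a median of 13794, and V genes made a median of 68.8% of their UMIs. In library 2, 105 cells had both calls. Ighv3-6 with Igkv12-44 was found in 31 cells, Ighv5-17 with Igkv3-4 in 30, Ighv5-6 with Igkv5-39 in 21 and Ighv5-17 with Igkv12-44 in 7, and the first 3 of these pairs made 78.1%. All 31 cells with an Ighv3-6 call had an Igkv12-44 call. The match probability of pairs was 21.9% and 20.8%, where the product of the heavy and light match probabilities is 7.36% and 5.65%. Of 22 pairs in library 1 and 16 in library 2, 1 was found in both plasma gates, which is 4.55% and 6.25%. The B gates of these libraries shared 12 pairs, or 7.19% of 167 and 14.5% of 83.

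**Figure D3:**
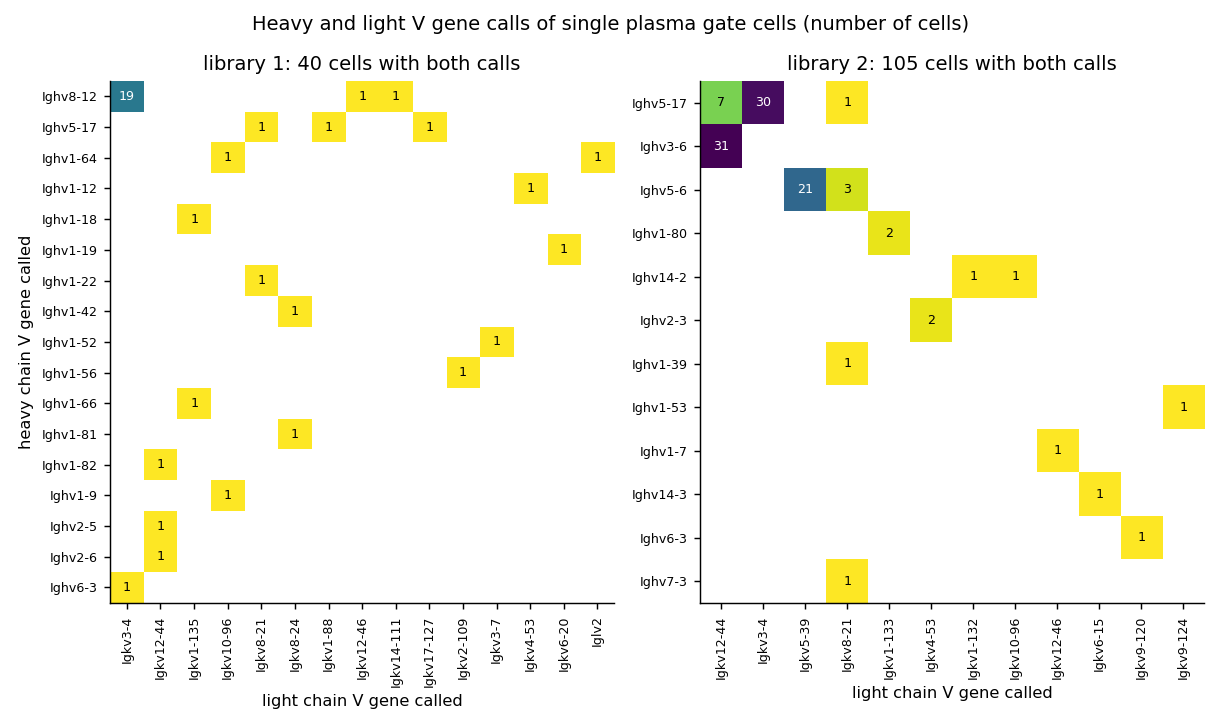
Number of plasma gate cells of libraries 1 and 2 for each combination of heavy (rows) and light V gene call (columns), with empty fields where no cell was found. Library 1 has a single large field of 19 cells, and library 2 has fields of 31, 30, 21 and 7 cells.

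Most of the remaining Ighv8-12 cells of library 1 had UMIs of several light genes. Of the 31 cells with this call, Igkv3-4 had the most light UMIs in 19, Igkv6-13 in 7 and Iglv3 in 3. Where Igkv6-13 led, Igkv6-15 was the next gene in 5 of the 7 cells, and the 7 cells held 18942 UMIs of Igkv6-13 and 8220 of Igkv6-15. Where Iglv3 led, Igkv6-13 was next in all 3 cells, which held 4116 and 2936 UMIs of these genes. None of the cells led by Igkv6-13 or Iglv3 had a light call, so the light and pair counts above leave them out. Of the other cells, 1 had 9544 UMIs of Igkv12-46 and 172 of Iglv1, and 1 had 10 UMIs of Igkv14-111 and 1 of Igkv3-4, and both had a light call. In library 2, 22 of the 27 Ighv5-6 cells had Igkv5-39 first, and Iglv1 was next in 18 of them, with 3435 UMIs against 29370 over the 22 cells.

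The large pairs differed in their heavy chain constant genes, which set the antibody class. Among the 19 Ighv8-12 and Igkv3-4 cells, Ighg2b (IgG2b) led in 10, Igha (IgA) in 5 and Ighg2c (IgG2c) in 4, by UMIs of 6529, 3889 and 2062 in all, and Ighm (IgM) had 42. Igha led in 17 of the 31 Ighv3-6 and Igkv12-44 cells and Ighg2c in 11, and Igha led in 22 of the 30 Ighv5-17 and Igkv3-4 cells. It also led in 14 of the 21 Ighv5-6 and Igkv5-39 cells, with Ighg2b first in 5. All 7 Ighv5-17 and Igkv12-44 cells had Ighg2b first, with 1334 UMIs against 111 of Igha. In this 5′ library type V and constant genes are counted as separate features, and links between them rest on shared cells only.

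Pairs in B gate cells were almost all single. In library 1, 184 cells with both calls gave 167 pairs, of which 151 were found in 1 cell, and the most frequent, Ighv1-78 with Igkv10-96, had 3 cells. In library 2, 91 cells gave 83 pairs, and in library 3, 19 cells gave 18. The match probability of pairs was 0.107%, 0.269% and 0.585%, near 0 in all and least precise in library 3, where 1 pair of 2 cells decides it. The most frequent pair of library 2, Ighv3-6 with Igkv12-44 in 4 B gate cells, was the leading plasma gate pair there, and 2 B gate cells of library 1 held its leading plasma gate pair, Ighv8-12 with Igkv3-4. The same rule gave both calls in 79 of 2640 T gate cells of library 1 and 10 of 4043 of library 2. Whether the UMIs of these pairs in B gate cells were the cells' own was not tested. In library 3 the plasma gate pair Ighv1-81 with Igkv8-24 was the only one also called in its B gate. A single B gate cell of library 2 had 980 of the 6320 V UMIs, 823 of them Igkv12-44, and without it the B level of that library was 65.2 instead of 76.7 per 10000 UMIs.

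The leading genes lay in different stretches of their loci. By distance from the J segments, to which V genes are joined, heavy calls of B gate cells had medians of 1.15, 0.962 and 1.01 Mb in libraries 1 to 3, and the 113 heavy IG_V_gene members a median of 1.18 Mb. In the plasma gate the medians were 2.22 and 0.430 Mb, the positions of Ighv8-12 and Ighv5-17, and 25.4% and 92.2% of the calls lay in the nearer part of the locus (up to its midpoint), against 58.2%, 64.8% and 54.8% in the B gates. For kappa calls the B gate medians were 1.14, 1.41 and 1.54 Mb, against 1.31 Mb for the 100 kappa IG_V_gene members, and the plasma gate medians 0.0505 and 0.822 Mb. The 0.0505 Mb is the position of Igkv3-4, close to the J segments.

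**Figure D4:**
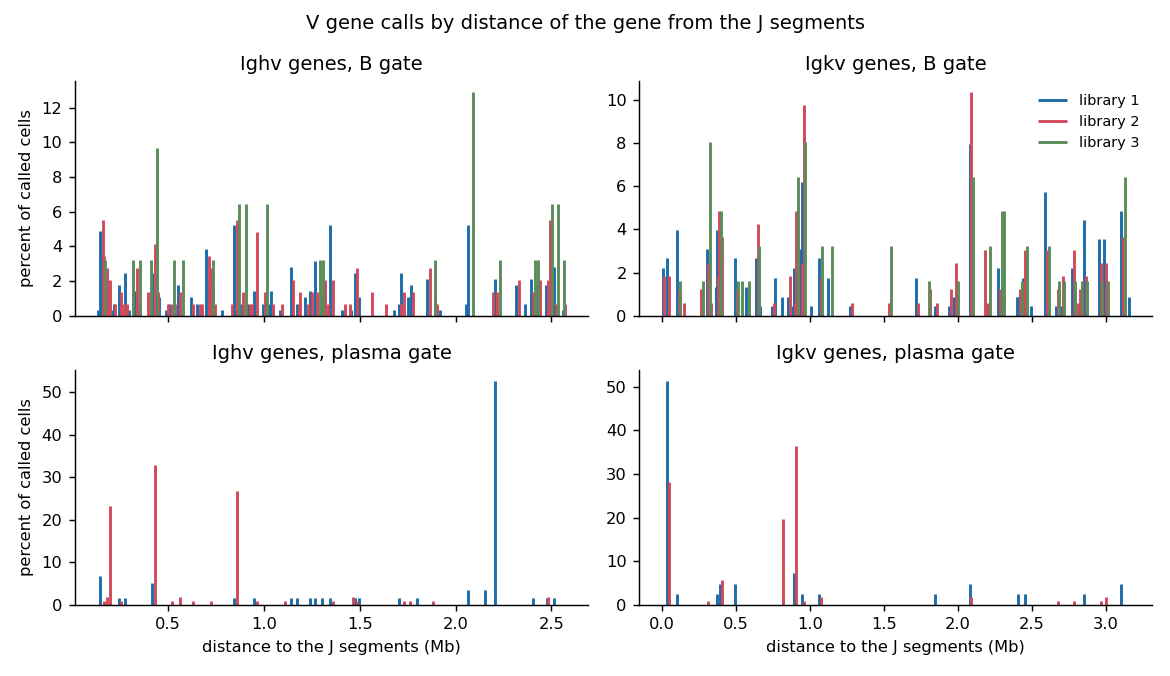
Percent of called cells for each V gene (vertical lines) against its distance in Mb from the nearest J segment, for heavy (left) and kappa genes (right) in the B gate (top) and the plasma gate (bottom), with the lines of different libraries set slightly apart. Percentages of kappa genes are of all light calls, and the axes of the B and plasma panels differ: the highest line is 12.9% in the B gate and 52.5% in the plasma gate.

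Summed UMIs per library and class were compared with the quasi-likelihood test of edgeR, which took the library as a block, and p-values were adjusted by Benjamini-Hochberg over every gene in the fit. Between B and T gate cells, 108 of 109 V genes tested were higher in B cells at an adjusted p under 0.05 and 0 were lower, where 14.3% of all 10085 genes tested were called higher and 18.3% lower, or 32.6% in all. Of the 109, 32 had no UMI in T gate cells of any library. These passed the filter on low counts through the B gate alone, which fixed their direction. With no filter 166 of 208 V genes were called higher, where 8.21% of all genes were. The count at an unadjusted p under 0.05 was 108. DESeq2 called 83 higher and 0 lower, where 9.17% of all genes were called higher and 13% lower. The V gene that was not called was Ighv8-12, with 148, 7 and 3 UMIs in B and 838, 0 and 0 UMIs in T gate cells, and a log2 difference of 1.13 ± 0.57 (SE, edgeR adjusted p = 0.155). The V genes with the largest differences were Igkv1-110, Iglv2, Igkv1-117, Igkv8-19 and Ighv2-9-1. Igkv1-110 had 328, 107 and 16 UMIs in B and 0 in T gate cells of the 3 libraries, so with a floor of 3 UMIs per library it was at least 874-fold, 778-fold and 85.1-fold higher in B cells. Iglv2 was at least 429-fold, 727-fold and 95.7-fold higher.

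Between plasma and B gate cells, where libraries 1 and 2 gave sums and left 1 residual degree of freedom, V genes moved in both directions. Of 107 V genes tested, 26 were higher in plasma cells and 30 lower (edgeR, adjusted p under 0.05), where 19.8% of the 8098 genes tested were called higher and 16.1% lower, or 35.9% in all. The largest rise was that of Igkv3-2, with 6783 and 35446 UMIs in plasma and 5 and 6 in B gate cells, a log2 difference of 12.08 ± 0.29 (SE, edgeR adjusted p = 1.37e-05). Its B gate UMIs were too few to pass the filter on low counts without the plasma gate, so its rise is a description. Nearly all its plasma gate UMIs came from cells led by Igkv3-4, as given below. Igkv3-4 rose by 10.77 ± 0.13 on the log2 scale, Ighv5-17 by 9.87 ± 0.58 and Igkv8-21 by 8.72 ± 0.23, each higher in both libraries. Ighv1-76 was the fifth, at 8.63 ± 0.52, but had 0 UMIs in both classes of library 2, so that it rested on library 1. Igkv12-44 rose by 7.51 ± 0.15, Ighv3-6 by 7.84 ± 0.42, Igkv12-46 by 4.64 ± 0.37 and Iglv1 by 7.48 ± 0.56. By TMM, the scaling used, the median over all genes was -0.05. By total UMIs it was -1.50, and 47 of the 107 V genes were then called higher and 47 lower, where 4.98% of all genes were called higher and 75.5% lower.

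Of the 30 V genes that fell, 13 had no UMI in the plasma gate of either library, and the 5 with the largest falls were among these. These 13 passed the filter on low counts through the B gate alone, which fixed their direction, so their falls are a description. Igkv1-110 had 328 and 107 UMIs in B and 0 in plasma gate cells of libraries 1 and 2, which with the floor of 3 UMIs per library was at least 99.7-fold and 118-fold lower in plasma cells. Igkv6-32 was at least 82.7-fold and 98.2-fold lower, Igkv14-126 15.8-fold and 67.3-fold, Ighv9-3 52.3-fold and 30.9-fold, and Ighv2-9-1 24.9-fold and 41.9-fold. The adjusted p of these 5 ran from 0.000409 to 0.00195 by edgeR. DESeq2 called 19 of the 107 V genes higher and 10 lower, where 12.6% of all genes were called higher and 6.83% lower. By DESeq2, Ighv2-9-1 passed and the other 4 of these 5 genes did not, with adjusted p from 0.0828 to 0.211. When 4 plasma markers were needed and any number of T or myeloid markers was allowed, Igkv1-110 had a log2 difference of -0.79 with an edgeR adjusted p of 0.755. Some genes that led the plasma gate calls of 1 library only did not pass, though Ighv3-6, which led in library 2 only, was among the rises above. Ighv8-12 had 154942 UMIs in plasma and 148 in B gate cells of library 1 but 0 and 7 in library 2, for a log2 difference of 5.06 ± 8.89 (SE, edgeR adjusted p = 0.681). Ighv5-6 and Igkv5-39 were of the same kind, with adjusted p of 0.861 and 0.654.

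Other genes of antibody production changed alongside. Of 13 constant and joining chain genes, 11 were tested between plasma and B gate cells, and 9 were higher and 1 lower in plasma cells, beside the 19.8% and 16.1% of all genes given above. Jchain rose by 10.35 ± 0.71, Igha by 8.77 ± 0.33 and Ighg2b by 8.05 ± 0.54 on the log2 scale, and Ighd, the constant gene of IgD on resting B cells, fell by 4.42 ± 0.67. Of 8 secretion genes, 7 were higher and 0 lower, among them Xbp1, a regulator of the secretory state, by 5.76 ± 0.34 and Derl3, of protein quality control, by 8.91 ± 0.53. Irf4, another regulator, was called higher by 0.81 ± 0.16, but lower by total UMIs, at -0.64. Of 5 receptor partners, 0 were higher and 4 lower, with Cd22 at -3.54 ± 0.46 and Cr2 at -3.25 ± 0.44. Only 1 of 6 rearrangement genes, Vpreb3, and 3 of 5 mutation and switching genes passed the filter on low counts, with 1 called in each list, Vpreb3 at 0.52 ± 0.15, which turned to -0.94 by total UMIs, and Ung, which removes uracil from DNA, at 1.95 ± 0.46, with 0.47 and an adjusted p of 0.407 by total UMIs. By total UMIs 8 constant and joining genes were higher and 2 lower, 5 secretion genes higher and 1 lower, and all 5 partners lower, at a share of 75.5% of all genes called lower. The median was 4.76 on the log2 scale for the constant list and -0.05 over all genes. Jchain, Mzb1 and Derl3 were plasma gate markers and Cd79a and Cd79b B gate markers, so their values are a description.

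V UMIs outside the B lineage gates were measured after thinning each cell to 1000 UMIs. The T gate cells of libraries 1 to 3 then had a V UMI in 27.2% (exact 95% interval 25.4% to 29.1%), 17.1% (15.9% to 18.3%) and 2.38% (1.53% to 3.53%), and so had 19.7%, 8.63% and 0% of the myeloid gate cells, where 0 of 52 cells has an upper bound of 6.85%. In B gate cells it was 99.7%, 95.1% and 97.5%. The thinning left out 283, 133 and 188 T gate cells, and without it the T shares were 55.8%, 38.4% and 5.10% at median depths of 3712, 2825 and 1759 UMIs, while the B gate stood at 100%, 98.9% and 97.7% at 4091, 2565 and 1693.5 UMIs. The myeloid shares without thinning were 56.9%, 38.3% and 3.33%, close to the T shares in libraries 1 and 2. Their median depths were 10399.5, 7425 and 2984.5 UMIs, and the part of depth in the gap between T and myeloid cells was not tested. After thinning, the mean T share was 15.6% ± 12.5 (SD, n = 3) and 9.75% without library 1.

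The V genes with the most UMIs in T and myeloid gate cells were mostly those of plasma gate cells of the same library. In library 1, Igkv3-4 made 49.7%, Ighv8-12 16.3%, Igkv12-44 14.4%, Ighv2-2 4.84% and Ighv1-82 4.56% of the 5149 V UMIs of T gate cells, and the myeloid gate had the same 5 genes in front. In library 2, Igkv12-44 made 47.5%, Ighv3-6 15.2%, Igkv3-4 9.54%, Ighv5-6 6.83% and Ighv5-17 6.63% of 2474, again the same 5 as in the myeloid gate. In library 3, Igkv15-103 made 46 of 68 and Ighv1-55 7 of 68, both called in 1 of its 2 plasma gate cells, and the 3 myeloid V UMIs were all Igkv15-103. Igkv14-100 had 2 UMIs there and the other T gate genes 1 each.

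The similarity between T and plasma gate was higher within a library than between libraries. The cosine similarity of V UMIs between T and plasma gate was 0.95, 0.84 and 0.99 in libraries 1 to 3, and between T and myeloid gate 0.99, 1.00 and 0.98. Between the T gate of library 1 and the plasma gates of libraries 2 and 3 it was 0.70 and 0.00, and between the T gate of library 2 and the plasma gates of libraries 1 and 3 it was 0.23 and 0.00. Against the B gate of the same library the T gate had 0.34, 0.84 and 0.24, and the B gate of library 2, where 1 cell held 15.5% of the V UMIs, had 0.65 against its plasma gate. These values describe the genes of 1 list and rest on 68 UMIs in the T gate and 3 in the myeloid gate of library 3.

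**Figure D5:**
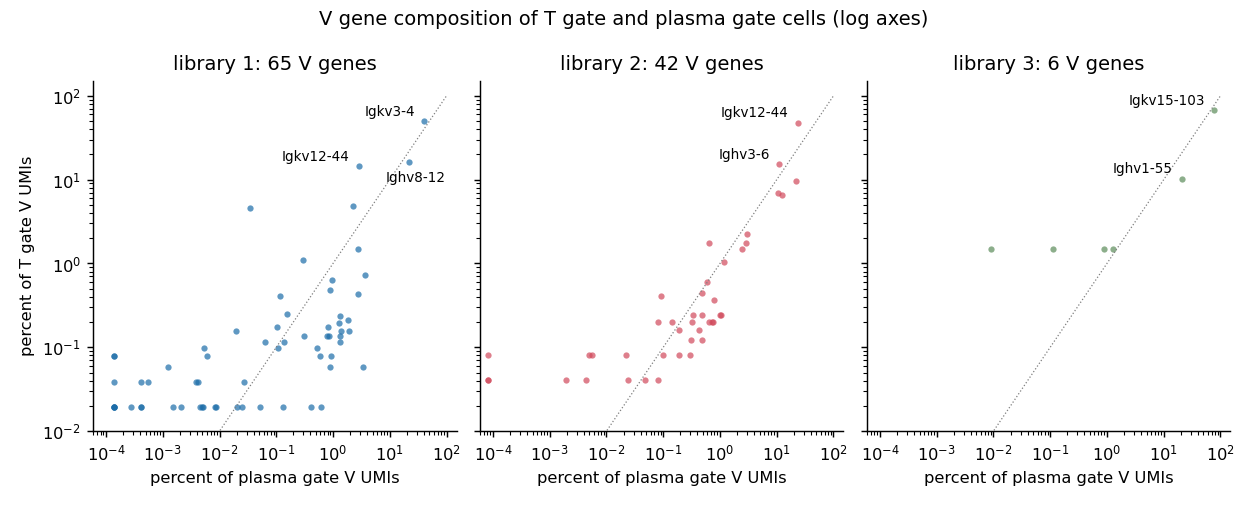
Percent of the V UMIs of T gate cells against percent of those of plasma gate cells (log axes) for the 65, 42 and 6 V genes with UMIs in both, in libraries 1 to 3, with a dotted line of equality. Igkv3-4 of library 1 lies near the line at 49.7% against 39.9%, while Igkv12-44 lies above it at 14.4% against 2.83% in library 1 and 47.5% against 23.3% in library 2, and Ighv1-82 of library 1 lies far above it, at 4.56% in T gate cells with 248 of 721179 V UMIs in plasma gate cells.

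The ratio of V to Jchain UMIs in T gate cells was also close to that of plasma gate cells. In library 1 it was 12.56 in plasma, 12.94 in T and 12.68 in myeloid gate cells, and 224 in B gate cells. In library 2 it was 12.95, 11.25, 9.42 and 52.2 in the same order. In library 3 it was 12.87 in plasma, 11.33 in T and 305 in B gate cells, and the myeloid value of 3 rested on 3 V UMIs and 1 Jchain UMI. The T value there rested on 6 Jchain UMIs, the B value on 3 and the plasma value on 2 cells. Jchain was a plasma gate marker, so the gates themselves bear on these ratios. Per Igkc UMI the ratios were further apart, with 24.4 in plasma, 5.69 in T and 4.23 in myeloid gate cells of library 1 and 8.93 in B gate cells. In library 2 they were 24.9 in plasma, 3.76 in T, 5.34 in myeloid and 2.77 in B gate cells, so the B gate was highest after plasma in library 1 and lowest in library 2. In library 3 they were 49.6 in plasma, 0.476 in T and 4.15 in B gate cells. Not all genes kept a single ratio: per 1000 plasma gate UMIs of library 1 the T gate held 8.90 UMIs of Igkv3-4 and 5.41 of Ighv8-12, but 36.5 of Igkv12-44 and 15.1 of Ighv2-2 and 0.122 of Igkv6-13. Ighv1-82 had 235 UMIs in T and 248 in plasma gate cells. Whether free RNA carried these UMIs was not tested. A T gate cell of library 1 with 656 V UMIs, 511 of Igkv3-4 and 137 of Ighv8-12, held 12.7% of that gate's V UMIs, and the level was 3.57 per 10000 without it.

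The same call rule gave V calls in cells that do not assemble V genes. In T gate cells a heavy gene was called in 162, 47 and 0 cells, that is 6.14%, 1.16% and 0% in libraries 1 to 3, and a light gene in 310, 172 and 2 cells, or 11.7%, 4.25% and 0.167%. Both were called in 79, 10 and 0 T gate cells. In the myeloid gate heavy calls were 7, 27 and 0 and light calls 15, 97 and 1. In 70 B gate cells the leading heavy gene had at least 2 UMIs but under 80% of the cell's heavy V UMIs. Ighv1-26 with Ighv8-12 was their most frequent combination, in 4 cells.

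Between myeloid and T gate cells few V genes were high enough to test. Of 15 tested, 0 were higher and 1 was lower in myeloid cells by edgeR, where 19.3% of the 11996 genes tested were called higher and 14.7% lower, or 34% in all, and 2 V genes had an unadjusted p under 0.05. The lower one was Ighv8-12, with 26 UMIs in myeloid and 838 in T gate cells of library 1 and 0 in both classes of libraries 2 and 3. Its log2 difference was -1.56 ± 0.52 (SE, edgeR adjusted p = 0.0384), and it rested on library 1. DESeq2 called 0 in either direction, where 15% of all genes were called higher and 12.3% lower, and its value for this gene was 0.74 with an adjusted p of 0.917. By total UMIs the median of all genes was -0.45 against -0.03 by TMM. Then 3 of the 15 V genes were called lower, where 30.3% of all genes were.

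Cells without a light call often had UMIs of related genes. In 210 B gate cells the leading light gene had at least 2 UMIs but under 80% of the cell's light V UMIs. Of these, 43.8% had their leading pair of genes in the same family, and of 34 such plasma gate cells 55.9%. Igkv12-44 with Igkv12-46 was the most frequent pair, in 23 B gate cells, then Igkv1-131 with Igkv1-135 in 13 and Igkv6-15 with Igkv6-23 in 7. The V exons of these pairs were equal at 94.6%, 93.0% and 94.6% of aligned bases, and the median over all 532 kappa pairs within a family was 89.4%, against 65.5% over 4418 pairs of different families. Among heavy calls, 11.4% of 70 such B gate cells had a pair of the same family. To show how close the pairs are, the V exons of Igkv12-46 and of Igkv3-2 are given with capitals where they differ from Igkv12-44 and Igkv3-4, which were printed above.
Igkv12-46: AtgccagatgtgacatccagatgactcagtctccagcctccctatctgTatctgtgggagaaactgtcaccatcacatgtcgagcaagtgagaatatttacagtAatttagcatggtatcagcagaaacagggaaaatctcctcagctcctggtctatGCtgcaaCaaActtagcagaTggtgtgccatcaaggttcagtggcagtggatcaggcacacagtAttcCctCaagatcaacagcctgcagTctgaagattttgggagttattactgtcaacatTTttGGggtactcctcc
Igkv3-2: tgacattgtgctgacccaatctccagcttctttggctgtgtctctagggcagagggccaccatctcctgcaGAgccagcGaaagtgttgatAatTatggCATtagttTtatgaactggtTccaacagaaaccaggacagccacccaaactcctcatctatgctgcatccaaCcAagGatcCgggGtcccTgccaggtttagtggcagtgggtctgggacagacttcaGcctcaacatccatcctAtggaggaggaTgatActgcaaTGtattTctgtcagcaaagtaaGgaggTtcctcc

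Igkv12-46 differed from Igkv12-44 at 16 of 298 bases, and Igkv3-2 from Igkv3-4 at 27 of 310, of which 25 lie in the printed part. Igkv3-2 UMIs were found beside Igkv3-4 UMIs in the same cells. It was the next light gene in 16 of 19 Ighv8-12 and Igkv3-4 cells of library 1, and the 19 cells held 6782 UMIs of it against 287246 of Igkv3-4. It was also next in all 30 Ighv5-17 and Igkv3-4 cells of library 2, which held 35445 against 267188. All but 1 of the 6783 and all but 1 of the 35446 plasma gate UMIs of Igkv3-2 thus came from cells led by Igkv3-4. Igkv12-41, equal to Igkv12-44 at 95.6% of bases, was likewise next in 16 of the 31 Ighv3-6 and Igkv12-44 cells. Whether reads were split between the 2 genes of such a pair was not tested.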

How the data were processed

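The deposited files hold raw UMI counts per gene and cell, which the authors made with Cell Ranger 5.0.1 (library 1) and 6.1.2 (libraries 2 and 3) on mm10 from 10x 5′ libraries. Library 1 took the gene order of the others, since no gene list of its own was used here. Over genes its totals correlated with theirs at Spearman 0.950 and 0.929 in that order, and 0.355 and 0.324 when shifted by 1 row.

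Cells with at least 300 UMIs, at most 5000 genes and at most 20% mitochondrial UMIs were kept. Gates needed UMIs of at least 3 of 6 plasma markers, 2 of 6 B markers, 2 of 6 T markers or 3 of 6 myeloid markers. Plasma gate cells had no Siglech UMI. Plasma and B gate cells had to show more of their own markers than T or myeloid markers, so some T or myeloid markers could be present, and T and myeloid gate cells had none of the B markers. No doublet caller was run. UMIs were summed per library and class with at least 10 cells and tested with edgeR 4.0.16 (TMM, library as block, R 4.3.3). The SE given with an edgeR log2 difference is the size of that difference divided by the square root of the test's F statistic. The block rests on the shared mice of a library. Tested on simulated data, the plasma against B comparison recovered 89.2% of 194 changed genes with 7 false calls among 7697 genes. The simulation used the means of both classes together, a single fixed dispersion and changes of equal size in both libraries. It therefore does not show how the test performs for V genes, which filled much of the plasma UMIs and in part led in a single library.

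Named genes were the 5 most called per class and chain in each library, the 5 with the most UMIs in T and myeloid cells, the 5 largest called changes in each direction, the lambda genes and the fixed pathway lists. Members, lists and rules were chosen with earlier results of these data known. One gene of the lists is not reported here. Other genes named, such as second light genes, were chosen after their values were seen. Intervals cover counting error only. The p-values rest on 3 libraries, or on 2 for plasma against B cells, and on a spread estimated in part from other genes. They do not measure the spread of a single gene between libraries alone. Depth was 3399733 to 55120460 UMIs per library.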

Additional observations from a re-analysis of the deposited data

Results flagged for a closer look

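V gene UMIs were also abundant in barcodes outside the gates used for the comparisons. The open plasma gate, an alternative with 57 and 145 cells in libraries 1 and 2, takes in such barcodes. Of 203 barcodes with at least 1000 V UMIs, 150 were in the plasma gate and 53 were outside every gate, 15 in library 1 and 38 in library 2. All 53 had at least 3 plasma markers together with at least as many T markers (37 barcodes) or myeloid markers (26 barcodes) as plasma markers, and 5 of them had failed the cell filter. They held 499469 V UMIs. In library 1 the heavy gene called was Ighv8-12 in 7 and Ighv2-2 in 4 of the 15, and in library 2 it was Ighv3-6 in 24, Ighv5-17 in 5 and Ighv5-6 in 4 of the 38. Their median UMIs were 34824 and 31260, against 30809 and 22993 for the plasma gate barcodes with as many V UMIs. Their source was not tested.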

How the results depend on the processing

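For B against T cells, the number of V genes higher was 108 of 109 tested and became 166 of 208 with no filter on low counts, 58 of 63 with no replicate block and 37 of 39 with strict gates. It was 57 to 107 when a library was left out, with 57 of 57 without library 1, 67 of 67 without library 2 and 107 of 112 without library 3. The number tested changed with the filter. Over all genes the share called higher was 14.3%, and 6.72% to 11.6% in these 6 alternatives. For plasma against B cells, the number higher became 78 of 222 with no filter and 47 of 107 scaled by total UMIs, where 13.7% and 4.98% of all genes were called higher. The number lower became 10 of 107 by DESeq2, 57 of 222 with no filter and 47 of 107 scaled by total UMIs. Over all genes 6.83%, 11.9% and 75.5% were called lower, in the same order. With no replicate block 23 were higher and 26 lower, within 1.5 times of the blocked counts, where 12.9% of all genes were called higher and 10% lower. Irf4 and Vpreb3 turned to -0.64 and -0.94 scaled by total UMIs. For myeloid against T cells, the number lower was 0 by DESeq2, with no replicate block, with strict gates and without library 1, 2 without library 2 or library 3, and 3 scaled by total UMIs. Over all genes 30.3% were called lower scaled by total UMIs, and 10.9% to 16.1% in the other settings named. By DESeq2 the log2 difference of Ighv8-12 turned to 0.74 (adjusted p = 0.917) and that of Ighv5-6 to 2.20 (adjusted p = 0.736). The block stands for the shared mice of a library. The tests without library 1 or 2 could not be run for plasma against B cells, since 1 library leaves no residual degrees of freedom, and strict gates (no T or myeloid marker) left 2 plasma cells in each of libraries 1 and 2.

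The mean percent of B cells with a light call was 52.2 when 5 UMIs were needed, 80.9 at a share of 60% and 42.2 at 95%. For plasma cells, heavy calls were 88.8% at a share of 95%, 99.5% with 4 gate markers and 99.7% with the open gate (4 markers, any number of T and myeloid markers allowed), and light calls were 41.7% at 95%. The B match probability was 3.79% for light genes at 5 UMIs. Summed by family it was 23.2% for heavy, 10.0% for light and 2.51% for pairs. The plasma match probability of heavy genes was 35.8% with 4 markers, 33.1% with the open gate and 38.0% by family. For light genes it was 21.3% at 60%, 36.5% at 95%, 33.1% with 4 markers, 36.1% with the open gate and 27.8% by family. For pairs it was 23.2% at 5 UMIs, 18.5% at 60%, 25.6% at 95%, 30.5% with 4 markers and 33.3% with the open gate. Without thinning, 33.1% of T and 32.9% of myeloid cells had a V UMI. The 4 marker gate, the open gate and the total UMI scaling were chosen after seeing the data. The causes of these differences were not tested. Library 3, the shallowest, had the fewest heavy V UMIs per B cell.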
